A study of Homo sapiens with 6 samples.

Results

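The 8 genes for BH3-only proteins (BBC3, PMAIP1, BCL2L11, BID, BAD, BIK, BMF and HRK) were followed in HEY cells, an established human ovarian cancer cell line, with and without depletion of PQBP1, a spliceosome component. The genes were picked by name as the BH3-only class, with earlier results of these data known, and all 8 were found among the 32679 genes of the deposited table. RNA was measured by poly(A) RNA-seq in 3 shNC samples, whose labels give a control genotype, no treatment and day 3, and in 3 shPQBP1 samples, whose labels give a PQBP1 knockdown genotype, 1 µg/ml doxycycline and day 3. The hairpin and doxycycline therefore differed together between the groups, and their effects cannot be told apart. The methods of the study describe stable lentiviral lines selected with puromycin, and the series describes the samples of each group as biological triplicates.

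BH3-only proteins start the mitochondrial pathway of cell death. Each carries a short BH3 helix that fits into a groove on anti-apoptotic BCL2 family proteins such as MCL1 and BCL-XL, and some also touch BAX and BAK directly, the effectors that open the outer mitochondrial membrane. They act as sensors: PUMA (the product of BBC3) and NOXA (PMAIP1) are induced by damage and stress, BIM (BCL2L11) and BAD respond to loss of growth factor signals, BID is cut by caspase-8 downstream of death receptors, BMF and BIM are held by dynein light chains, BIK sits on the endoplasmic reticulum, and HRK is best known from neurons. Several of them are controlled after transcription, by phosphorylation, cleavage or protein turnover, which RNA levels do not show.

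The coding stretch of the BH3 core is what the 8 genes share, and it is printed here to show how alike they are in sequence. Each line gives 39 bases (13 codons) of the coding strand, read from hg38 with the GENCODE release 44 canonical transcript. Capitals mark the leucine codon and the pair of codons for a small residue and the aspartate that follows it, the motif by which the stretch was found.
BBC3: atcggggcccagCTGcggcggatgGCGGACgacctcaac
PMAIP1: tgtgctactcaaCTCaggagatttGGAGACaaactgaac
BCL2L11: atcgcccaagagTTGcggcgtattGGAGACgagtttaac
BID: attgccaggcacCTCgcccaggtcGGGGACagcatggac
BAD: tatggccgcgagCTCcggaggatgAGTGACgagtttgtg
BIK: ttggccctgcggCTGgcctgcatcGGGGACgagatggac
BMF: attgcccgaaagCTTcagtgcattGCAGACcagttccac
HRK: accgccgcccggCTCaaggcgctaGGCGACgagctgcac

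The stretches lay at chr19:47226582-47226620 on the minus strand (BBC3, exon 3 of 4), chr18:59902661-59902699 on the plus strand (PMAIP1, exon 2 of 2), chr2:111150091-111150129 on the plus strand (BCL2L11, exon 3 of 4) and chr22:17739418-17739456 on the minus strand (BID, exon 4 of 6). The others lay at chr11:64271625-64271663 on the minus strand (BAD, exon 3 of 4), chr22:43127704-43127742 on the plus strand (BIK, exon 3 of 5), chr15:40104198-40104236 on the minus strand (BMF, exon 4 of 5) and chr12:116881173-116881211 on the minus strand (HRK, exon 1 of 2). The small residue before the aspartate was glycine in 5 of the 8, alanine in BBC3 and BMF, and serine in BAD. Counted over all 13 residues, the leucine and aspartate that the motif fixes in every member included, the most alike pairs (BID with BIK, BCL2L11 with BAD, BBC3 with PMAIP1, and PMAIP1 with BCL2L11) shared 7 of 13 residues, and BBC3 with BIK shared 2 of 13, those fixed by the motif. BID held 2 matches to the motif and the one most like the other members was taken, so its likeness is partly set by that choice. The whole proteins ran from 54 residues (PMAIP1) to 198 (BCL2L11). The GC content of the canonical transcripts ran from 36.7% in PMAIP1 over 45.5% in BCL2L11, 48.0% in BID, 49.6% in HRK, 54.7% in BMF, 55.9% in BIK and 65.8% in BAD to 69.7% in BBC3.

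The knockdown was visible in the targeted gene: PQBP1 was at 7.18, 6.67 and 6.93 FPKM (read fragments divided by transcript length and by the sample's total of mapped fragments) in the shNC samples and at 1.68, 1.72 and 1.44 FPKM in the shPQBP1 samples (log2 fold change -2.04, SE 0.10, limma adjusted p = 0.00154). HEY identity markers were partly present: 7 of 10 ovarian carcinoma markers, PAX8 and the keratins KRT7, KRT8 and KRT18 among them, had a mean of at least 1 FPKM in both groups, whereas MUC16 (0 to 0.01 FPKM), WT1 (0.31 to 0.71 FPKM) and EPCAM (0.79 to 1.13 FPKM) did not. The summed level of the 10 was 1340 to 1490 FPKM in shNC and 1520 to 1610 FPKM in shPQBP1, most of it from VIM (means 1170 and 1300 FPKM), and the groups did not overlap for VIM, MSLN (means 13.5 and 23.8 FPKM), PAX8 (14.3 and 20.8 FPKM), KRT19 (1.38 and 1.84 FPKM) and WT1 (0.673 and 0.367 FPKM). Of other cell types, PTPRC was at 0 in every sample, CD68 alone of 4 leukocyte genes reached 1 FPKM (summed level 9.12 to 15.8 FPKM in shNC and 12.3 to 21.3 FPKM in shPQBP1), none of 5 fibroblast genes did (0.45 to 0.83 against 0.21 to 0.64 FPKM), and of 3 endothelial genes CDH5 alone did, at 2.11 to 2.96 against 3.10 to 3.64 FPKM (summed level of all 3 genes 2.39 to 3.2 against 3.13 to 3.73 FPKM), whereas PECAM1 was lower in shPQBP1, at 0.23 to 0.25 against 0.02 to 0.06 FPKM. The FPKM values summed to 294970 to 318484 per shNC sample and 278286 to 287423 per shPQBP1 sample, and mitochondrially encoded genes took 33.5% to 35.8% and 28.9% to 30.5% of these sums. The part of these differences in the results was not tested. Sample shNC 1 had the lowest correlations with the other samples (0.926 to 0.955 across genes).

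The members spanned about 2 orders of magnitude on the length-scaled FPKM scale. In shNC cells the order of mean FPKM was PMAIP1 (16.8 ± 9.14, SD, n = 3), BAD (10.2 ± 2.21), BID (8.68 ± 0.892), BBC3 (3.60 ± 0.121), BIK (range 1.00 to 1.25), BCL2L11 (0.613 ± 0.136), HRK (0.287 ± 0.0416) and BMF (0.153 ± 0.0306). The ranges of neighbours overlapped for PMAIP1 with BAD and for BAD with BID, and for no other neighbours. In shPQBP1 cells the order was the same except that BID (7.74 ± 0.419) stood before BAD (7.42 ± 0.574), and there the ranges of BID with BAD, BIK with BCL2L11 and HRK with BMF overlapped. PMAIP1 alone made up 27.8%, 55.6% and 33.6% of the summed FPKM of the 8 genes in the shNC samples and 42.6%, 57.0% and 56.7% in the shPQBP1 samples. HEY cells thus held most BH3-only RNA as NOXA, BAD and BID, with BIM, HRK and BMF each under 1 FPKM in every sample. In bulk RNA, fewer cells expressing a gene and less RNA per cell cannot be told apart.

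**Figure D1:**
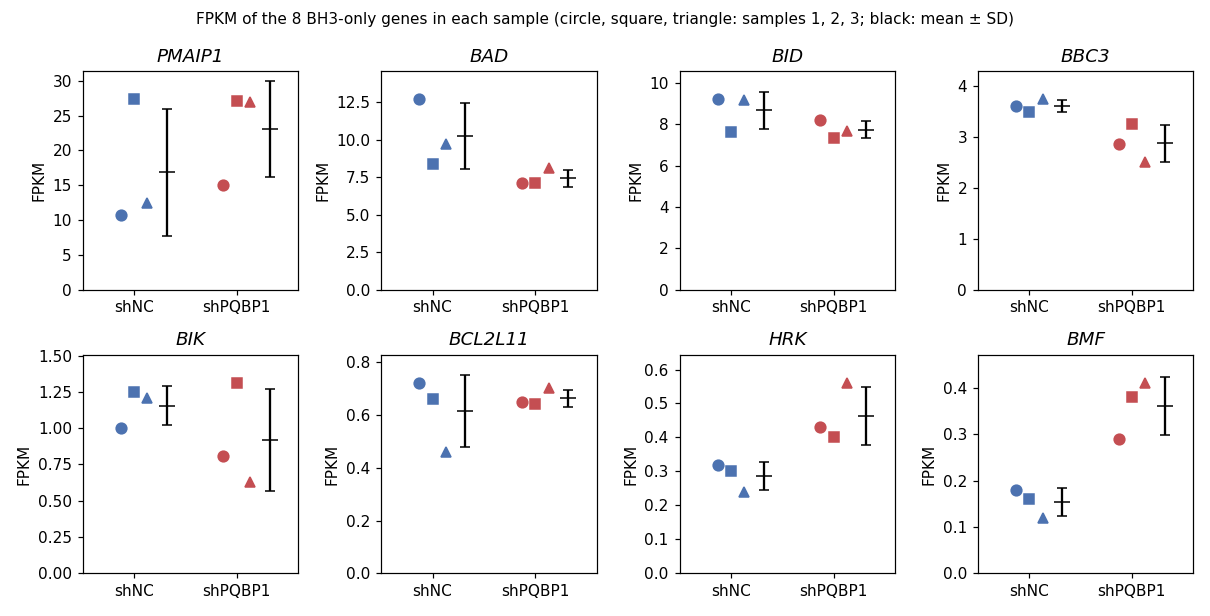
FPKM (vertical axes, each from 0 with its own scale) of each BH3-only gene in the 3 shNC (blue) and 3 shPQBP1 (red) samples, with the mean ± SD in black. BAD and BBC3 lay lower in every shPQBP1 sample, HRK and BMF higher, and the groups overlapped for PMAIP1, BID, BIK and BCL2L11.

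The first comparison asked whether BH3-only RNA changed when PQBP1 was depleted. None of the 5 members with a mean of at least 1 FPKM passed an adjusted p of 0.05 (limma on log2(FPKM + 0.1) with Benjamini-Hochberg adjustment over 11413 genes), against 2.91% of all genes tested. At an unadjusted p under 0.05, 2 of the 5, BBC3 and BAD, were lower and 0 were higher, while 11.7% of all genes tested were lower and 23.6% differed in either direction. None met the rule that joins an unadjusted p under 0.05 to a fold over 2, which 1.52% of all genes tested met. The groups did not overlap in 2 of the 5, against 34.4% of all genes tested. The median log2 fold change of the 5 was -0.33, beside 0.021 over all genes tested, with 4 values below 0 and 1 above. That median was -0.15 without shPQBP1 3, and over all 8 members in the fit of all genes above 0 the median was -0.02, beside 0.014 over all genes there. The 3 members under 1 FPKM are described apart, from a fit of all 30717 genes above 0 in at least 1 sample.

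BBC3 (ENSG00000105327, chr19:47220822-47232766) codes for PUMA, which binds every anti-apoptotic family member. It was at 3.59, 3.49 and 3.73 FPKM in shNC cells and at 2.85, 3.24 and 2.51 FPKM in shPQBP1 cells. All 3 shPQBP1 samples lay below all 3 shNC samples, and shPQBP1 3 was the lowest. BBC3 had a log2 fold change of -0.33 (SE 0.12, 95% interval -0.61 to -0.04), with a limma p = 0.0295, an adjusted p = 0.167 and an exact permutation p = 0.1, the smallest that 3 against 3 allows. BBC3 lost the unadjusted threshold of 0.05 in limma when any 1 of shNC 2, shNC 3, shPQBP1 1 and shPQBP1 3 was left out, and its log2 fold change then ran from -0.24 to -0.35. The genes MIR3190 and MIR3191 overlap its exons.

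BAD (ENSG00000002330, chr11:64269830-64284704), whose product is kept inactive by phosphorylation and 14-3-3 proteins, was at 12.68, 8.36 and 9.70 FPKM in shNC cells and at 7.09, 7.08 and 8.08 FPKM in shPQBP1 cells. The groups did not overlap, but shPQBP1 3 and shNC 2 were close, and shNC 1 stood highest. For BAD the log2 fold change was -0.44 (SE 0.16, 95% interval -0.84 to -0.05), with p = 0.0335 and an adjusted p = 0.176 in limma and an exact permutation p = 0.1. Without shNC 1 the log2 fold change of BAD was -0.28 (limma adjusted p = 0.187), and without shNC 3, shPQBP1 1 or shPQBP1 2 BAD no longer had an unadjusted p under 0.05 (log2 fold change -0.47, -0.41 and -0.41). GPR137, on the opposite strand, shares exonic sequence with BAD and was at 1.25 to 1.65 FPKM with overlapping groups. Whether the counting used strand is not given in the sources used here.

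PMAIP1 (ENSG00000141682, chr18:59899996-59904305) codes for NOXA, which binds MCL1 above all and shortens its life. It was at 10.69, 27.34 and 12.48 FPKM in shNC cells and at 15.07, 27.05 and 26.93 FPKM in shPQBP1 cells. The groups overlapped: the highest of the 6 values was shNC 2, which was above the other 2 shNC samples by more than 2-fold, and shPQBP1 1 was close to them. Its coefficient of variation of 54.3% in shNC was the largest of the 8 members in that group. For PMAIP1 the log2 fold change was 0.53 (SE 0.41, 95% interval -0.46 to 1.51), with p = 0.241 and an adjusted p = 0.44 in limma and an exact permutation p = 0.4. Single libraries decided the size of this value: it was 0.94 without shNC 2 (limma adjusted p = 0.151), where the unadjusted p fell under 0.05, 0.81 without shPQBP1 1 (adjusted p = 0.407) and 0.27 without shNC 1 (adjusted p = 0.731).

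BID (ENSG00000015475, chr22:17734138-17774770), which links death receptors to mitochondria, was among the steadiest members, at 9.21, 7.65 and 9.18 FPKM in shNC cells and at 8.19, 7.36 and 7.68 FPKM in shPQBP1 cells. The shNC 2 value fell inside the shPQBP1 range. BID had a log2 fold change of -0.16 (SE 0.10, 95% interval -0.41 to 0.09, limma adjusted p = 0.372), and of -0.25 without shNC 2 (adjusted p = 0.19), where the unadjusted p fell under 0.05. BIK (ENSG00000100290, chr22:43110750-43129712), the endoplasmic reticulum member, was at 1.00, 1.25 and 1.21 FPKM in shNC cells and at 0.81, 1.31 and 0.63 FPKM in shPQBP1 cells. Its groups overlapped because shPQBP1 2 was the highest of the 6 samples. BIK had a log2 fold change of -0.35 (SE 0.27, 95% interval -1.01 to 0.31, limma adjusted p = 0.441), and of -0.14 without shPQBP1 3. With an interval this wide, only a large difference in BIK could have been detected here.

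BMF (ENSG00000104081, chr15:40087890-40108892), a sensor tied to dynein light chains, had the lowest level and, by the ratio of the means, the largest fold of the 8. It was at 0.18, 0.16 and 0.12 FPKM in shNC cells and at 0.29, 0.38 and 0.41 FPKM in shPQBP1 cells. Every shPQBP1 sample lay above every shNC sample, and the ratio of the means was 2.35. In the fit of all genes above 0, the log2 fold change was 0.86 (SE 0.24, 95% interval 0.29 to 1.43), with a limma p = 0.0101, an adjusted p = 0.202 and an exact permutation p = 0.1. At this level the size depends on the pseudocount: the log2 fold change was 1.18 with 0.01 and 0.24 with 1 added to the FPKM. With 0.01 added, BMF met the rule of a fold over 2 given above, but did not pass the adjusted threshold. With 1 added, PMAIP1 (0.50), BAD (-0.40) and BBC3 (-0.26) in the filtered fit were larger in size than BMF. Without shNC 2, PMAIP1 (0.94) stood above BMF (0.88). BMF-AS1 overlaps BMF exons on the opposite strand.

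HRK (ENSG00000135116, chr12:116856144-116881441), known as a neuronal death gene, was at 0.32, 0.30 and 0.24 FPKM in shNC cells and at 0.43, 0.40 and 0.56 FPKM in shPQBP1 cells. Here too every shPQBP1 sample lay above every shNC sample. HRK had a log2 fold change of 0.54 (SE 0.23, 95% interval -0.02 to 1.09), with a limma p = 0.0554, an adjusted p = 0.379 and an exact permutation p = 0.1. Its size too depended on the pseudocount, at 0.67 with 0.01 and 0.18 with 1 added to the FPKM, and the latter had an unadjusted p under 0.05 (limma adjusted p = 0.305). Among the 19304 genes that were above 0 with a mean under 1 FPKM, 5.86% had groups that did not overlap with the shPQBP1 samples higher, and 4.01% had an unadjusted p under 0.05 with a higher value. Of the 3 members in that range, BMF and HRK were in the former class and BMF in the latter. No read depth could be recovered from the values, so the counting error of such low values is unknown.

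BCL2L11 (ENSG00000153094, chr2:111119378-111168444) codes for BIM, which binds all anti-apoptotic members and can also activate BAX. It was at 0.72, 0.66 and 0.46 FPKM in shNC cells and at 0.65, 0.64 and 0.70 FPKM in shPQBP1 cells. The shPQBP1 samples lay inside the shNC range. BCL2L11 had a log2 fold change of 0.12 (SE 0.21, 95% interval -0.41 to 0.64, limma adjusted p = 0.808), and -0.05 without shNC 3. MIR4435-2HG, an RNA gene on the opposite strand that overlaps BCL2L11 exons, was at 4.38 to 5.11 FPKM, above BCL2L11 in every sample.

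**Figure D2:**
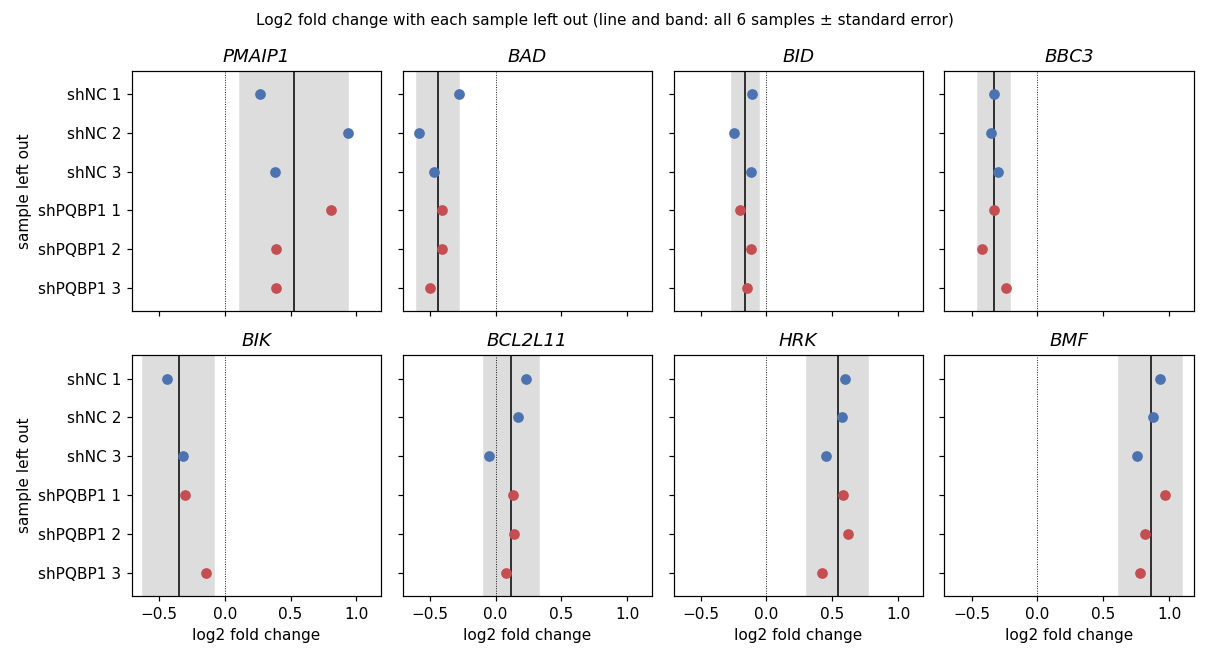
Log2 fold change (horizontal axes) of each member with 1 sample left out in turn (points, blue for shNC and red for shPQBP1 samples left out), with the value over all 6 samples ± its standard error as line and band. BIK has no point where its mean fell under 1 FPKM. The point for shNC 2 lies at 0.94 for PMAIP1 and that for shNC 3 at -0.05 for BCL2L11, and all points of BBC3 and BAD lie below 0.

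The gene value pools transcripts that differ in whether they hold the BH3 stretch. The table listed 16 transcripts for BCL2L11, 13 for BID, 7 for BAD, 6 each for BBC3 and BMF, 4 for HRK, 3 for PMAIP1 and 1 for BIK. Of the transcripts of each gene found in GENCODE release 44, the stretch above was held by 5 of 8 for BCL2L11, 10 of 10 for BID, 5 of 7 for BAD, 4 of 6 for BBC3, 3 of 6 for BMF, 1 of 4 for HRK, 3 of 3 for PMAIP1 and 1 of 1 for BIK. These counts include transcripts without a coding sequence. Among the coding ones they were 5 of 8 for BCL2L11, 7 of 7 for BID, 5 of 6 for BAD and 3 of 4 for BBC3. For BMF, HRK, PMAIP1 and BIK they were 3 of 5, 1 of 2, 2 of 2 and 1 of 1. FPKM was given per gene, so the share of each form was not analysed here. For HRK and BMF, the members whose RNA was higher in every shPQBP1 sample, 3 of 4 and 3 of 6 of all transcripts in that release, coding or not, were without the stretch.

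Across all genes, the log2 fold change between the groups moved with base composition: over 11385 tested genes it had a Spearman correlation of -0.459 with the GC content of the transcript and of 0.206 with its length, a description over genes that share the same 6 libraries. The 5 tested members lay along this slope. PMAIP1, at 36.7% GC, had the only positive value, and BAD and BBC3, the most GC-rich, were 2 of the 4 negative ones. With the trend on GC content and length removed from each sample, the log2 fold change went from -0.33 to -0.10 for BBC3 (SE 0.13, limma adjusted p = 0.667), from -0.44 to -0.22 for BAD (SE 0.10, adjusted p = 0.214), from 0.53 to 0.30 for PMAIP1 (SE 0.38, adjusted p = 0.649), from -0.16 to -0.10 for BID and from -0.35 to -0.21 for BIK. The median of the 5 then stood at -0.10 beside 0.027 over all genes, and 0 of the 5 had an unadjusted p under 0.05, against 27.6% of all genes in the corrected fit (8.24% at an adjusted p under 0.05). The values of BMF (0.89, SE 0.17, limma adjusted p = 0.0782) and HRK (0.51, SE 0.19, adjusted p = 0.294, with an unadjusted p now under 0.05) stayed near those without the correction. Whether the GC trend arose in the cells or in the libraries was not tested.

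**Figure D3:**
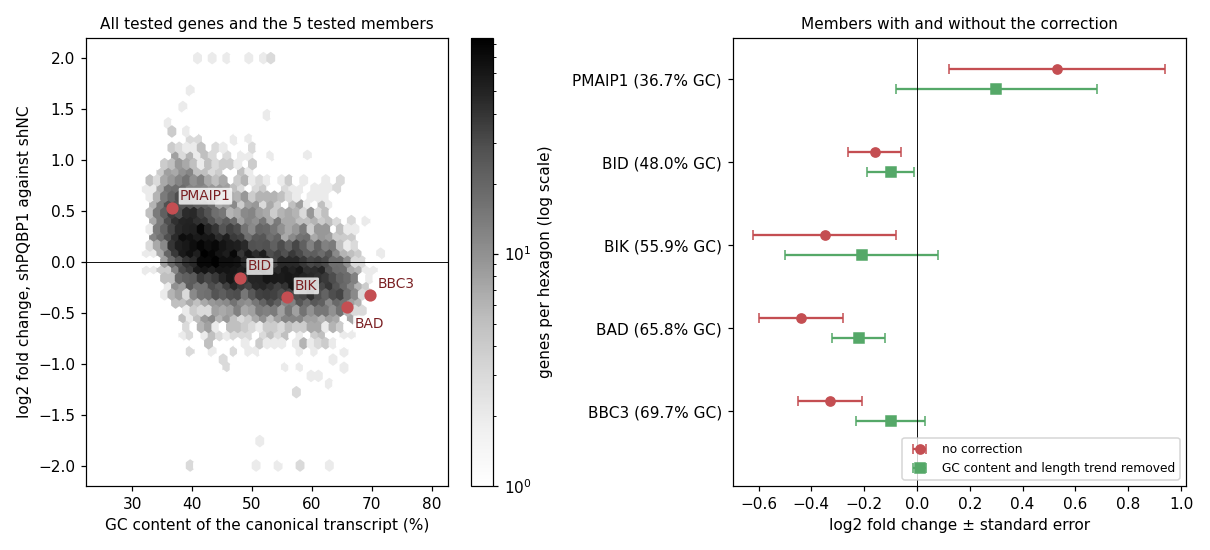
Left, log2 fold change of all tested genes with a transcript (grey hexagons, values beyond ±2 drawn at the edge) against transcript GC content, with the 5 tested members in red. Right, log2 fold change ± standard error of these members in limma without the correction (red circles) and with the GC content and length trend removed (green squares), where BBC3 goes from -0.33 to -0.10 and BAD from -0.44 to -0.22.

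The second comparison set the members beside the proteins they bind. The counts of this and the following lists stand beside 2.91% of all genes tested at an adjusted and 23.6% at an unadjusted p under 0.05, in either direction. Of the 6 anti-apoptotic genes 4 were tested, and 1 rose at an adjusted p under 0.05 and 2 were higher at an unadjusted p under 0.05, with a median log2 fold change of 0.50, and of 0.22 without BCL2L2. BCL2A1, a partner of NOXA, BIM and PUMA, rose from 17.05, 20.10 and 18.54 FPKM to 33.54, 30.71 and 31.59 FPKM (log2 fold change 0.78, SE 0.09, limma adjusted p = 0.0154, between 0.0161 and 0.0859 with 1 sample left out). MCL1, the main partner of NOXA, was at 116.21, 123.65 and 127.04 FPKM in shNC cells and at 139.22, 143.07 and 143.66 FPKM in shPQBP1 cells, without overlap (0.22, adjusted p = 0.123). BCL2L1, the gene of BCL-XL, was at 65.95, 63.03 and 66.73 FPKM and at 48.47, 65.70 and 63.61 FPKM (-0.15, adjusted p = 0.48, -0.01 without shPQBP1 1 and 0.01 with the GC correction). BCL2 itself was under 1 FPKM, at 0.71, 0.94 and 0.98 and at 0.77, 0.97 and 0.93. BCL2L2, named after its values were seen, was at 0.47 to 0.86 FPKM in 5 samples and at 15.39 FPKM in shPQBP1 2 alone, and its log2 fold change of 1.49 (adjusted p = 0.46) is one of the 4 behind that median. BCL2L10 was at 0 to 0.04 FPKM.

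Of the effectors BAX, BAK1 and BOK, all tested, 0 passed the adjusted threshold, and at an unadjusted p under 0.05 BAX (-0.38, limma adjusted p = 0.107) and BAK1 (-0.26, adjusted p = 0.181) were lower and BOK (0.30, adjusted p = 0.137) higher, with a median of -0.26, beside 23.6% of all genes tested. With the GC correction the values were -0.18 for BAX, -0.07 for BAK1 and 0.53 for BOK, of which BOK passed (adjusted p = 0.0165), as did 8.24% of all genes in the corrected fit. The summed FPKM of the 8 members was 38.4, 49.2 and 37.1 in shNC and 35.4, 47.5 and 47.5 in shPQBP1, and the groups overlapped. Without PMAIP1, left out after its spread was seen, the sum was 27.7, 21.9 and 24.6 in shNC and 20.3, 20.4 and 20.6 in shPQBP1, without overlap. The anti-apoptotic sum was 201, 208 and 214 against 223, 256 and 240 FPKM, also without overlap, and 200, 208 and 213 against 222, 240 and 240 FPKM without BCL2L2. The effector sum was 95.3, 77.4 and 79.4 against 66.7, 72.1 and 69.4 FPKM. In every sample the anti-apoptotic RNA thus exceeded the BH3-only RNA several-fold.

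**Figure D4:**
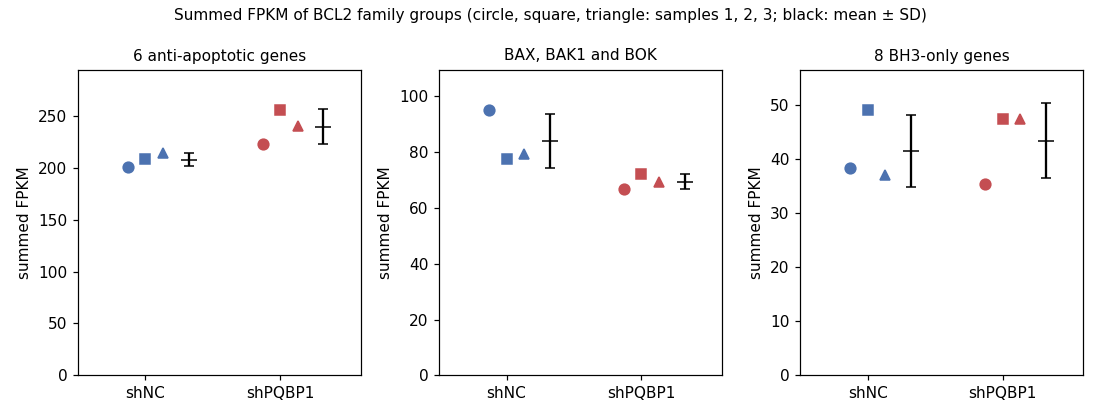
Summed FPKM (vertical axes from 0) of the 6 anti-apoptotic genes, of BAX, BAK1 and BOK, and of the 8 BH3-only genes in each shNC (blue) and shPQBP1 (red) sample, with the mean ± SD in black. The anti-apoptotic sum was 208 ± 6.86 and 240 ± 16.5 FPKM, the effector sum 84.0 ± 9.8 and 69.4 ± 2.74 FPKM, and the BH3-only sum 41.6 ± 6.64 and 43.4 ± 6.99 FPKM with overlapping groups.

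Ratios of a member to a partner were compared in FPKM for 5 pairs, each with a two-sided exact permutation test, and in each the groups overlapped. PMAIP1 to MCL1 was 0.0920, 0.221 and 0.0982 in shNC and 0.108, 0.189 and 0.187 in shPQBP1 (exact permutation p = 0.8). BCL2L11 to MCL1 was 0.00505 ± 0.00131 against 0.00467 ± 0.0002 (SD, n = 3 each, exact permutation p = 0.7). BBC3 to BCL2L1 was 0.0544, 0.0554 and 0.0559 in shNC and 0.0588, 0.0493 and 0.0395 in shPQBP1 (exact permutation p = 0.4), so that the shNC samples lay close together and the shPQBP1 samples apart. BAD to BCL2L1 was 0.157 ± 0.0314 against 0.127 ± 0.0193 (exact permutation p = 0.3, n = 3 each), and BID to BCL2L1 was 0.140, 0.121 and 0.138 in shNC against 0.169, 0.112 and 0.121 in shPQBP1 (exact permutation p = 1). The smallest p that 3 against 3 allows is 0.1, so these tests could not reach 0.05.

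Of 17 transcription factors known to drive BH3-only genes, 15 were tested, 1 fell and 0 rose at an adjusted p under 0.05, and 1 was higher and 4 were lower at an unadjusted p under 0.05 (median -0.12), beside 2.91% and 23.6% of all genes tested. With the GC correction 1 rose and 0 fell at an adjusted p under 0.05, and the unadjusted threshold was passed by 3 higher and 3 lower ones, beside the 8.24% and 27.6% of all genes in that fit. ATF3, a stress factor known to act on the NOXA gene, fell from 5.79, 5.67 and 6.06 FPKM to 4.38, 3.86 and 3.82 FPKM (log2 fold change -0.53, limma adjusted p = 0.0384, between 0.0504 and 0.167 with 1 sample left out, and 0.0600 with the GC correction). RELA, the p65 subunit of NF-κB, had a log2 fold change of -0.92 (adjusted p = 0.0749), and JUN of 0.42 (adjusted p = 0.0557, and 0.00844 with the GC correction). ATF4 and DDIT3, of the endoplasmic reticulum stress arm, were at -0.21 (adjusted p = 0.203) and -0.26 (adjusted p = 0.26). TP63 and TP73 were under 1 FPKM.

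Of 38 binding partners and modifying enzymes of BH3-only proteins, all tested, 0 passed an adjusted p of 0.05 in limma, and at an unadjusted p under 0.05 the higher ones numbered 4 and the lower ones 7 (median -0.05), beside 23.6% of all genes tested. With the GC correction 3 passed the adjusted threshold, YWHAH (0.37, adjusted p = 0.0101) and SFN (0.26, adjusted p = 0.0462) higher and AKT2 (-0.33, adjusted p = 0.0266) lower, and the unadjusted counts were 8 higher and 7 lower; the shares over all genes in that fit were 8.24% and 27.6%, so that the adjusted count is near the background. YWHAH and SFN, both 14-3-3 genes, were named after their values were seen, and without the correction YWHAH was at 0.31 (adjusted p = 0.108) and SFN at 0.05 (adjusted p = 0.788) with overlapping groups. For BAD, the 14-3-3 gene YWHAE was at -0.46 (adjusted p = 0.078), the kinase gene AKT2 at -0.47 (adjusted p = 0.0552, and 0.0499 with median-of-ratios scaling) and PPP3CA, of the phosphatase calcineurin that frees BAD, at 0.44 (adjusted p = 0.154), which was 0.28 without shNC 1. For BID, the protease gene CTSB was at 0.82 (adjusted p = 0.191), with shNC 3 at 33.65 FPKM apart from the other shNC samples at 79.54 and 70.88 FPKM and a log2 fold change of 0.44 (adjusted p = 0.133) without it, and CASP8 was at -0.06 (adjusted p = 0.797). The dynein light chain genes DYNLL1 (0.05) and DYNLL2 (-0.05), whose products hold BIM and BMF, had overlapping groups. Of 9 other genes for proteins with a BH3-like stretch, 8 were tested, 1 fell and 0 rose at an adjusted p under 0.05, and 3 were lower and 0 higher at an unadjusted p under 0.05 (median -0.18), beside 11.7% of all genes tested that were lower. BNIP3, a mitophagy receptor of the outer mitochondrial membrane, fell from 17.52, 16.52 and 16.29 FPKM to 10.07, 10.77 and 11.14 FPKM (-0.65, limma adjusted p = 0.0183, between 0.0198 and 0.088 with 1 sample left out), and RAD9A was at -0.60 (adjusted p = 0.0821).

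Of 14 genes downstream of the mitochondrial step, 13 were tested and 0 passed an adjusted p of 0.05 in limma, with 1 lower and 1 higher one at an unadjusted p under 0.05 (median -0.11), beside 23.6% of all genes tested in either direction. BIRC5, the survivin gene, was at -0.25 (adjusted p = 0.209). The caspase-9 gene CASP9 was under 1 FPKM.

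Among themselves the members did not move as 1 block over the 6 samples. On the log2(FPKM + 0.1) scale the Pearson correlation was -0.96 for PMAIP1 with BID and -0.96 for BBC3 with HRK, 0.94 for BMF with HRK, 0.85 for BBC3 with BIK and 0.80 for BID with BAD. These are descriptions over 6 libraries that include the group difference. For each member whose groups did not overlap, the tested genes most like it by that correlation were ST3GAL2 (0.997), DNM1 (0.995) and ZNF207 (0.993) for BBC3, ARHGDIA (0.996) and GRK6 (0.995) for BAD, RMI2 (1.000), ATXN1L (0.998) and GAS6 (0.996) for BMF, and AC005253 (0.990), MT1X (0.990) and TFB1M (0.986) for HRK. Over 0.95 lay 66 genes for BBC3, 150 for BAD, 167 for BMF and 50 for HRK, so these names mark a pattern that many genes had.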

How the data were processed

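The authors made poly(A) libraries from TRIzol RNA, sequenced them in pairs, aligned to hg38 with HISAT2 (2.2.0), sorted with SAMtools (1.9), assembled with StringTie (1.3.0), compared with edgeR and deposited 1 table of FPKM values per gene and sample, rounded to 2 decimals. Its fold change, p and q columns hold the authors' own comparison and were not used. The annotation release is not given in the sources used here. No whole-read step was found in low values, so depth is unknown and no counting interval is given. p-values measure the spread between these samples.

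The 3 shPQBP1 samples were compared with the 3 shNC samples with limma (3.58.1, R 4.3.3; eBayes with trend, two-sided, Benjamini-Hochberg) on log2(FPKM + 0.1) for the 11413 of 32679 genes with a mean of at least 1 FPKM; fold changes are on that scale, which understates low genes. The study's counts could not be tested, as the table holds FPKM only. Genes under 1 FPKM were read from a fit of all 30717 genes above 0. Single values were compared with exact permutation tests (scipy 1.17.1). Alternatives were other pseudocounts, filters, scalings, no trend, a replicate block, each sample left out and a spline correction (5 degrees of freedom) for GC content and length of the GENCODE 44 canonical transcript; for genes under 1 FPKM the same alternatives in the unfiltered fit were added after seeing the data. Members and lists were chosen with earlier results of these data known. Named were all members, PQBP1, MCL1, BCL2L1, BCL2, BAX and BAK1, from each list every gene at an adjusted p under 0.05 and the 2 highest and 2 lowest log2 fold changes at an unadjusted p under 0.05, and 3 most correlated genes for each member whose groups did not overlap; ATF4, DDIT3, CASP8, DYNLL1, DYNLL2, BCL2L2, YWHAH, SFN and genes under 1 FPKM were added after their values were seen. Some genes this rule names are not reported here. The main limma fit was tested on simulated data, and its alternatives were not. BH3 stretches were found by the motif leucine, 3 residues, a small residue, aspartate in translated canonical transcripts; BID had 2 matches, and the one most like the other members was taken.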

Additional observations from a re-analysis of the deposited data

How the results depend on the processing

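The count of members at an adjusted p under 0.05 was 0 under all 16 alternatives, and so was that at a fold over 2 with an unadjusted p under 0.05. Outside these 16, BMF met the latter rule in limma in the unfiltered fit with 0.01 added to the FPKM (log2 fold change 1.18). The count at an unadjusted p under 0.05 was 2, and became 0 with a mean FPKM of at least 10 (which leaves PMAIP1 alone) and 0 with the GC and length correction, and 0 to 3 with 1 sample left out (0 without shNC 3 or shPQBP1 1). Of the tested members, each kept its direction under every alternative run; BIK could not be tested without shNC 2 or shPQBP1 2, where its mean fell under 1 FPKM. The adjusted p ranged over the alternatives from 0.132 to 0.695 for BBC3, 0.13 to 0.384 for BAD, 0.151 to 0.731 for PMAIP1, 0.19 to 0.58 for BID and 0.323 to 0.789 for BIK, and in the unfiltered fit from 0.0782 to 0.491 for BMF, 0.294 to 0.613 for HRK and 0.686 to 0.905 for BCL2L11. BCL2L11 reversed to -0.05 without shNC 3 (-0.05 to 0.23 with 1 sample left out), BCL2 to -0.05 with the GC correction and -0.06 with quantile normalization (-0.10 to 0.12 with 1 sample left out, -0.03 without shPQBP1 2 and -0.01 without shPQBP1 3), and BCL2L1 to 0.01 with the GC correction; the cause was not tested. Over all genes, 332 passed an adjusted p of 0.05, against 190 with no filter, 211 with a mean of at least 10 FPKM, 938 with the GC correction and 30 to 466 with 1 sample left out (30 without shPQBP1 3), and 2689 passed an unadjusted p of 0.05, against 4156 with no filter, 956 with a mean of at least 10 FPKM and 1767 to 2940 with 1 sample left out. Depth is unknown, which limits BMF, HRK and BCL2L11 most.

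The sample numbers shared by the groups gave no sign of pairing: the correlations of same-numbered deviations were -0.186, -0.138 and -0.0114. Those of differently numbered samples ran from -0.143 to 0.225. Whether the samples were prepared in pairs cannot be told from these values. With the replicate block, the members at an unadjusted p under 0.05 were 1 and all genes at an adjusted p under 0.05 were 0; with the replicate block and the GC and length correction they were 1 and 21. PQBP1 was at -2.04 (limma adjusted p = 0.0686) with the block and at -1.86 (adjusted p = 0.0543) with the block and the correction, and BCL2L1 was at 0.01 with both.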
